A study of Mus musculus with 20 samples.

Results

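Cold exposure of 4 h was compared with room temperature (RT) in the brown adipose tissue of wild-type mice, a fat depot specialized in making heat. The comparison uses 10 of the 20 libraries of the series, 5 from WT_RT and 5 from WT_cold, and covers every gene with enough reads, 15233 in all. The genotype of these mice is labelled CEBPB WT, and the other 10 libraries come from adipose-specific knockout (KO) mice that lack CEBPB (C/EBP beta, a transcription factor) at the same temperatures. The labels give neither the temperature of the cold room, nor the age or sex of the mice, nor the promoter that drove the deletion, nor whether the wild-type mice carry an unrecombined allele. They do not say that each library is a separate animal either, so each p-value measures the spread between libraries, which may be technical.

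Messenger RNA was sequenced with strand information, and 33215524 to 55184989 reads of each wild-type library fell on genes. Levels are in CPM, which scale the gene reads of every library to 1 common total, after correction for composition, and are given for replicates 1 to 5 of a group in order. Changes are log2 fold changes, cold minus RT, with the standard error (SE) of the fit, and a gene rose or fell when its Benjamini-Hochberg adjusted p was under 0.05 (n = 5 libraries per group). Cebpb lay between 75.5 and 167 CPM in the wild-type libraries and between 0.208 and 2.27 CPM in the knockout libraries, so the genotype labels match the RNA. Ucp1, a marker of brown adipocytes, was high in every wild-type library, at 4852 to 12702 CPM. The first principal component of the wild-type libraries held 57.3% of the variance and separated the temperatures. WT_RT replicate 4 and WT_cold replicate 5 lay nearest its middle, at -25.51 and 30.04, against -56.54 to -41.73 and 39.12 to 53.14 for the others, and counts of list members without both are given where they move by over 1.5 times.

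Cold reaches brown adipocytes through sympathetic nerves. Norepinephrine binds beta-adrenergic receptors, which raise cyclic AMP and activate protein kinase A. The kinase phosphorylates lipases and lipid droplet proteins, and it phosphorylates CREB, a transcription factor that binds the cyclic AMP response element (CRE) in promoters of early target genes. The fatty acids released fuel the mitochondria and activate uncoupling protein 1, which lets protons back into the matrix and turns their gradient into heat. Gi-coupled receptors on the same cell lower cyclic AMP and restrain lipolysis.

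The promoters of 5 genes that rose are shown as examples of the letters that CREB and the heat shock factors are known to bind. The genes, and the letters marked in each, were picked for display and are no sample of the genes that rose. They are the RefSeq promoters of GRCm38.p6, 250 bases before the transcription start (for Nr4a3 only the 98 of these that lie farthest from the start, since an annotated exon begins after them), written 5′ to 3′ on the gene's strand. Capitals mark the CRE core TGACG or its reverse CGTCA in the nuclear receptor genes Nr4a1 and Nr4a3, the full CRE TGACGTCA in the thyroid hormone deiodinase gene Dio2, and a pair of inverted heat shock units, GAANNTTC, in the chaperone genes Hspa1b and Hspb1.
Nr4a1 (chr15:101266596-101266845, + strand): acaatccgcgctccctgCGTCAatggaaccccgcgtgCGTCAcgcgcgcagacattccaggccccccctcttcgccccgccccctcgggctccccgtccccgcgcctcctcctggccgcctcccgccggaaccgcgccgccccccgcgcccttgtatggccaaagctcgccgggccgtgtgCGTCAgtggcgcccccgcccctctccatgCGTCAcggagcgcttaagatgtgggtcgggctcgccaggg
Nr4a3 (chr4:48045055-48045152, + strand): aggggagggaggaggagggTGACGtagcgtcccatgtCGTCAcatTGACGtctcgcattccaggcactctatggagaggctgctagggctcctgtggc
Dio2 (chr12:90739039-90739288, - strand): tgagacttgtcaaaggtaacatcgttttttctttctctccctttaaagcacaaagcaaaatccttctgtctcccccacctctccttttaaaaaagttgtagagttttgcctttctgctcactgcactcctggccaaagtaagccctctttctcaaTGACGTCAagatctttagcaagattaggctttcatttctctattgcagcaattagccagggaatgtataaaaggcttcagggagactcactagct
Hspa1b (chr17:34959239-34959488, - strand): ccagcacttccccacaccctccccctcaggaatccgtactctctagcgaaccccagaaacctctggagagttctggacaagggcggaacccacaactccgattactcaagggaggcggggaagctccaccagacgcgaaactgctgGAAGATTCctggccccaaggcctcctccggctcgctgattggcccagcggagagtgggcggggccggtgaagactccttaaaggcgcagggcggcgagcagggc
Hspb1 (chr5:135887669-135887918, + strand): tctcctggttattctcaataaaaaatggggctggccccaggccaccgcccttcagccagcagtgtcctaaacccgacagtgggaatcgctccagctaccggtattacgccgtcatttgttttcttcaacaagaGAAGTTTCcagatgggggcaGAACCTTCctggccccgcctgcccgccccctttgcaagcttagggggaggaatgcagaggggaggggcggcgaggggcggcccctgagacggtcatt

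Nr4a1 held the CRE core 4 times, at 233, 213, 69 and 40 bases before its start. Nr4a3 held it 3 times, at 231, 213 and 205 bases, in the 98 bases shown, and its bases nearer the start are not in that count. The full CRE of Dio2 began 95 bases before its start. Counted over 250-base promoters on both strands, TGACG stood in 65.4% of the promoters of the immediate early list described below (17 of 26 promoters), in 50% of those of the heat shock list (19 of 38), in 25.2% of the promoters of all tested genes and in 17.8% of all promoters. Among genes that rose at least 2-fold it stood in 28.5%, and among those that fell at least 2-fold in 18.8%. The full CRE, which contains the core, stood in 3.94% and 1.02% of these promoters and in 2.45% of those of tested genes. Among genes that rose at least 4-fold the full CRE stood in 2.44%, a share near that of all tested genes, and the core in 27.6%. The AP-1 letters TGANTCA stood in 8.6% of the promoters of genes that rose at least 2-fold, 4.5% of those that fell as far and 4.63% of all tested. GAANNTTC or its other arrangement TTCNNGAA stood in 34.2% of the promoters of the heat shock list (13 of 38), against 10.3% of those of tested genes. These shares are descriptions of the letters and were given no test. They count promoters and not genes, so a gene with several promoters counts once for each. A promoter was available for 20 of the 26 tested immediate early genes, 28 of the 35 heat shock genes and 10883 of all 15233.

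Cold changed 8594 of the 15233 genes, 56.4% of all that entered the test: 3997 (26.2%) rose and 4597 (30.2%) fell. Most rises were small: their median log2 change was 0.504, and 60.1% of them were under 1.5-fold. Falls were larger, with a median size of 0.686 and 41% under 1.5-fold. A rise of at least 2-fold was seen for 642 genes (4.21%), a rise of at least 4-fold for 140 and of at least 16-fold for 23. A fall of at least 2-fold was seen for 1339 genes (8.79%), of at least 4-fold for 250 and of at least 16-fold for 58. These falls include skeletal muscle markers, which had a median change of -5.171 and a lowest of -9.508, the lowest of all genes. None of the 18 markers had groups without overlap. With the mean of these markers as a term in the fit, 600 genes rose and 1199 fell at least 2-fold. The median change over all tested genes was -0.053, so list medians below are read against a value close to 0, and the percentages beside the counts of a list against the 26.2% and 30.2% of all genes that rose and fell. Long noncoding and antisense transcripts made up 19.3% of the genes that fell at least 2-fold (258 genes), 6.39% of those that rose as far and 6.7% of all tested.

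**Figure D1:**
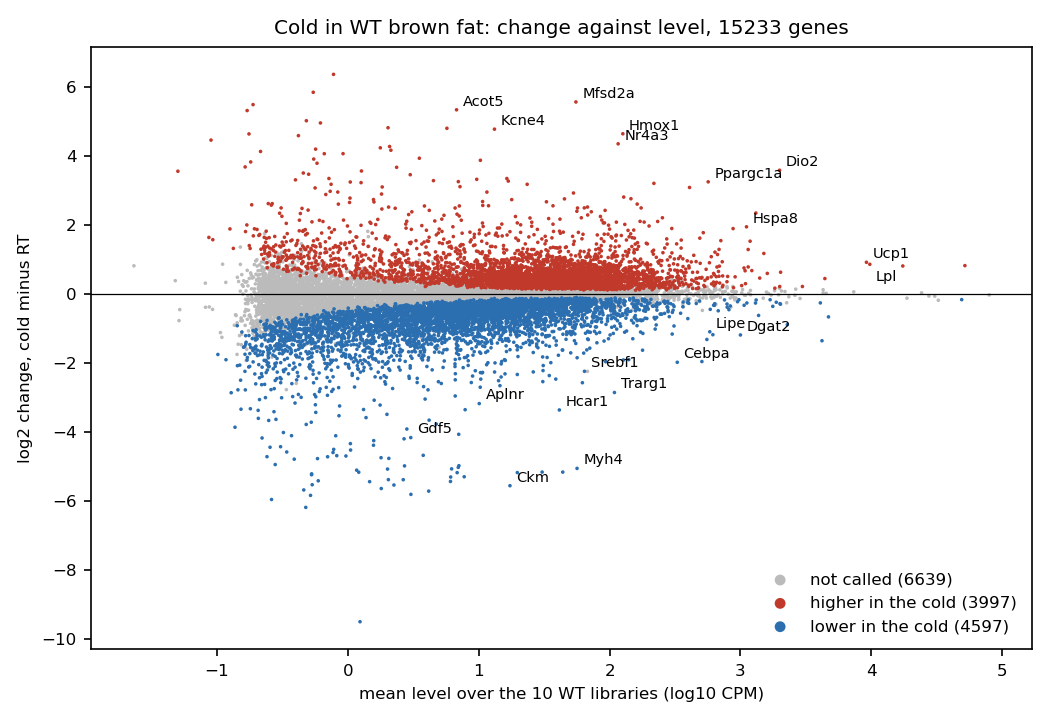
Log2 change in the cold (vertical axis) against mean level over the 10 wild-type libraries (horizontal axis, log10 CPM), 1 point per tested gene. Red points are the 3997 genes that rose, blue points the 4597 that fell and grey points the others. Named points include Dio2 and Lpl among abundant genes that rose, and Cebpa and Lipe among abundant genes that fell.

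Of 5 tested adrenergic receptor genes, which receive the signal, 3 fell (60%), while the cyclic AMP machinery behind them changed in both directions. Adrb3, the main beta receptor of adipocytes, read 111, 115, 83.7, 64.9 and 90.8 CPM at RT and 59.3, 50.3, 50.9, 67.8 and 57.4 CPM in the cold, log2 change -0.70 ± 0.21, adjusted p = 0.00757. Its groups overlapped, since RT replicate 4 lay below cold replicate 4, and once the fit had a term for the mean of the skeletal muscle markers the call was lost (adjusted p = 0.124). The alpha-1 receptor gene Adra1d, a receptor coupled to calcium release, went from 10.3 ± 1.05 CPM at RT to 3.42 ± 0.558 CPM in the cold, log2 change -1.59 ± 0.13, adjusted p = 2.34e-09, with no overlap. Adra1a changed by -0.53, and cold replicate 5 reached the RT levels. Adrb1 did not pass the test (-0.12, adjusted p = 0.543).

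Among 17 tested genes of adenylyl cyclases and protein kinase A, 8 rose (47.1%) and 3 fell (17.6%). Adcy3, a cyclase that makes cyclic AMP, rose from 386 ± 114 CPM at RT to 891 ± 176 CPM in the cold (log2 change 1.21 ± 0.17, adjusted p = 7.64e-06), and all cold libraries were above all RT libraries. Adcy9 fell by 1.51 on the log2 scale. The regulatory subunit Prkar1a, which holds the kinase inactive until cyclic AMP binds, read 288, 274, 274, 318 and 299 CPM at RT and 503, 558, 611, 579.9 and 504 CPM in the cold. It rose by 0.92, again without overlap. Pkig, an inhibitor peptide of the kinase, rose by 1.005, whereas the catalytic subunit Prkaca fell by 0.48 and the regulatory subunit Prkar2b by 0.63. Phosphodiesterases, which break cyclic nucleotides down, divided in the same way, with 9 of 18 up (50%) and 5 down (27.8%). Pde4d, which protein kinase A itself activates, went from 134 ± 21.2 CPM at RT to 298 ± 70.4 CPM in the cold, a change of 1.15. Pde1c rose by 1.496 and Pde7b by 0.88, and Pde9a, Pde1b and Pde5a fell by 1.25, 1.04 and 0.98. Of 14 RGS genes, which shut off G protein signals, 1 rose (7.14%) and 5 fell (35.7%, and 3 genes without cold replicate 2 or without cold replicate 3). Rises numbered 2 without cold replicate 5 or without both intermediate libraries. The 1 that rose, Rgs2 (0.82), lost its call without any 1 of 7 libraries, RT replicates 1, 4 and 5 and cold replicates 1 to 4 (adjusted p = 0.0563 to 0.0883).

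The list of CREB-family factors, coactivators and salt-inducible kinases had 8 members up (50%) and 1 down (6.25%) of 16. Sik1, a CREB target whose product inhibits the CREB coactivators, read 45.6, 27.98, 58.3, 61.03 and 55.2 CPM at RT and 160.1, 189, 192, 153 and 85.4 CPM in the cold. All cold libraries exceeded all RT libraries, and cold replicate 5 was the lowest of them (log2 change 1.65 ± 0.30, adjusted p = 0.000159). Crem, which makes the repressor ICER from an internal promoter, rose by 1.22, and the kinase gene Sik3 by 0.91. Creb3l2 fell by 0.62. The gene of CREB itself, Creb1, rose by 0.24.

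Immediate early transcription factors had 17 rises (65.4%) and no fall among 26 tested members, and 1 fall without RT replicate 4, RT replicate 5 or cold replicate 2, with a median change of 0.768. Nr4a3, an orphan nuclear receptor that needs no known ligand, read 12.5, 5.79, 10.1, 13.7 and 12.4 CPM at RT and 170.2, 286, 272, 262 and 118 CPM in the cold. The groups were far apart, and the change was 4.35 ± 0.48 (adjusted p = 8.15e-07). Its relative Nr4a2 rose by 2.51 and Nr4a1 by 2.92. For Nr4a1 cold replicate 5, at 16.3 CPM, lay within the RT range, while the other cold libraries read 89.4 to 142 CPM. The AP-1 subunit gene Fosl2 read 27.4, 16.8, 21.4, 25.7 and 25.7 CPM at RT and 129, 150.2, 137, 138 and 53.4 CPM in the cold, and rose by 2.38. Jun rose by 1.49, Atf3 by 3.87 and the small Maf gene Maff by 3.34. Arc, known as a neuronal early gene, rose by 3.25 from 1.33 ± 0.768 CPM at RT to 12.6 ± 5.25 CPM in the cold. Fos and Fosb rose too, from means of 0.565 and 0.143 CPM to 1.77 and 1.35 CPM, which are low levels. The serum-response genes Egr1 and Myc did not pass the test, with log2 changes of 0.28 and -0.33 (adjusted p = 0.6 and 0.176).

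**Figure D2:**
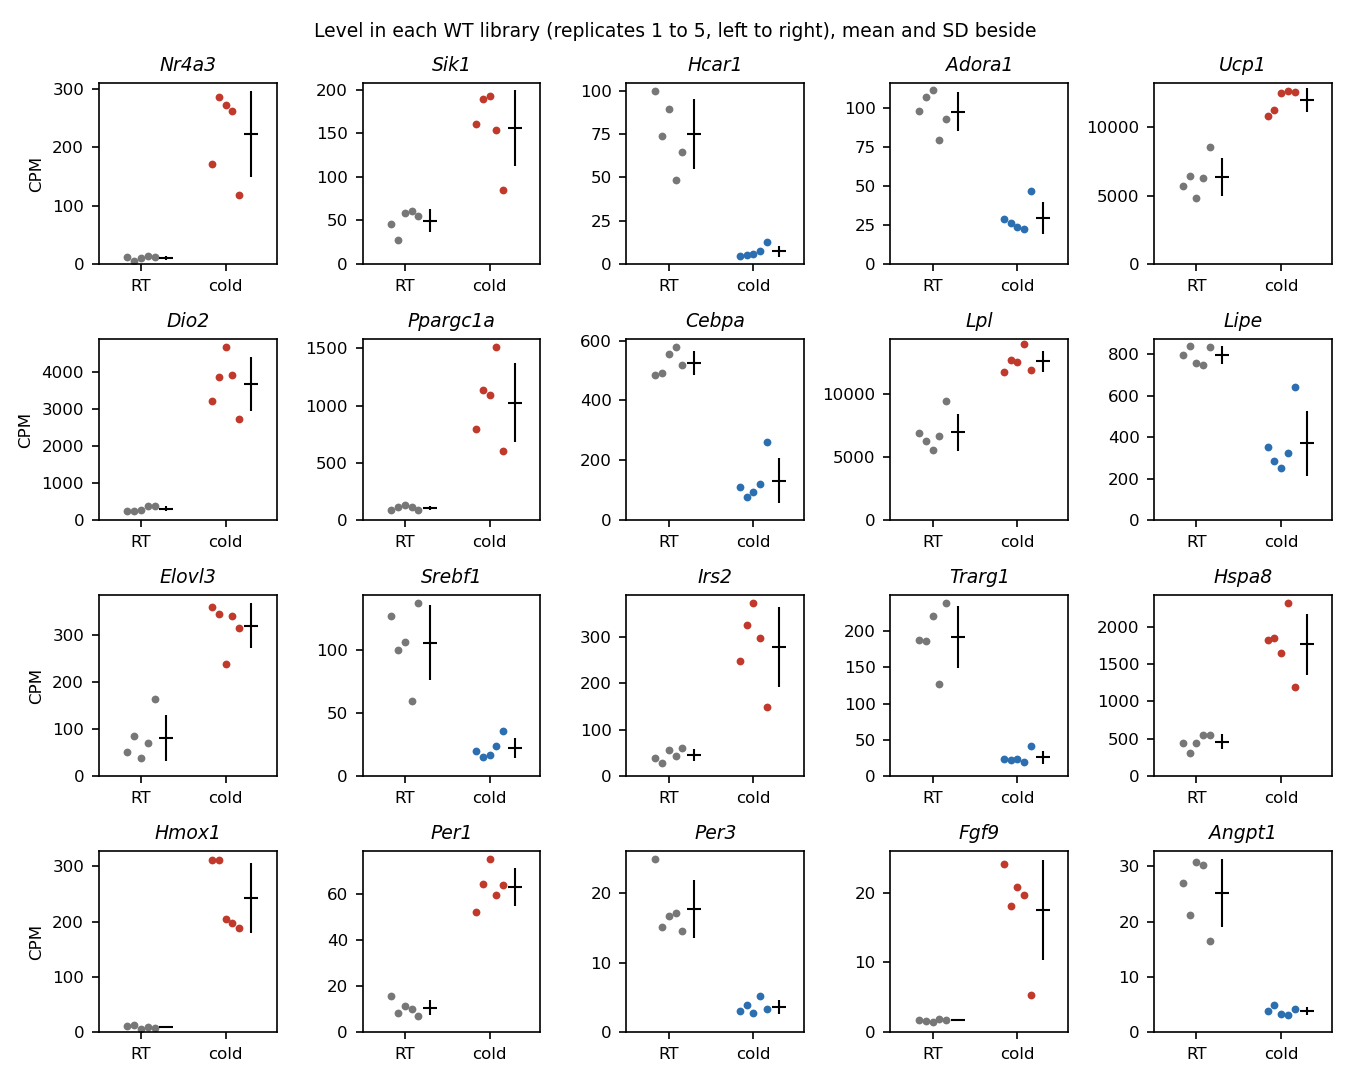
Level of 20 genes in each wild-type library (vertical axis, CPM, linear and starting at 0), with RT replicates 1 to 5 in grey and cold replicates 1 to 5 in red (rose) or blue (fell), and the mean with its SD beside each group. None of these genes has groups that overlap, and WT_cold replicate 5 is the cold library nearest the RT level for Nr4a3, Sik1, Hcar1, Cebpa and Lipe.

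Genes whose products damp kinase signalling had 17 rises (68%) and 3 falls (12%) of 25 and a median of 0.473. Socs2, a suppressor of growth hormone signalling, read 9.57, 13.6, 11.5, 5.96 and 17.9 CPM at RT and 61.6, 73.5, 131, 54.6 and 72.8 CPM in the cold, log2 change 2.75 ± 0.26, adjusted p = 1.2e-07. Spry4, which inhibits receptor tyrosine kinase signalling, went from 19.4 ± 2.87 CPM at RT to 109 ± 26.4 CPM in the cold, a change of 2.49. The MAP kinase phosphatase genes Dusp16, Dusp8, Dusp6 and Dusp1 rose by 2.28, 1.95, 2.08 and 1.78, all 4 without overlap. Dusp14 fell by 2.07. Kruppel-like factors showed 5 rises (35.7%) and 3 falls (21.4%) of 14, with 5 falls without cold replicate 1 and 1 without both intermediate libraries, led by Klf6 (0.99) and Klf10 (-0.82). Of 12 interferon regulatory factors none rose and 3 fell (25%), but 1 rose without RT replicate 2 and only 1 fell without RT replicate 3 or cold replicate 3. Among them, Irf4, a factor of thermogenic transcription in brown fat, changed by 0.19 (adjusted p = 0.664).

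The receptors that oppose lipolysis had the lowest median of the signalling lists. Of 10 tested Gi-coupled antilipolytic receptors 8 fell (80%) and 1 rose (10%), with a median change of -1.634. Hcar1, the lactate receptor, read 99.8, 74.03, 89.6, 48.7 and 64.5 CPM at RT and 4.93, 5.14, 6.05, 7.41 and 12.97 CPM in the cold, log2 change -3.37 ± 0.29, adjusted p = 3.41e-08. The lowest RT library stood above the highest cold library, replicate 5. The niacin and ketone body receptor gene Hcar2 read 11.2, 8.88, 6.65, 4.64 and 4.42 CPM at RT and 0.723, 0.815, 1.59, 0.857 and 1.24 CPM in the cold, a change of -2.79. The apelin receptor gene Aplnr, which is also an endothelial gene, went from 18.2 ± 3.12 CPM at RT to 2.02 ± 1.23 CPM in the cold, a change of -3.18. Adora1, the adenosine A1 receptor, read 97.7, 106, 111, 79.1 and 92.5 CPM at RT and 28.9, 26.2, 23.4, 22.2 and 46.7 CPM in the cold. It fell by 1.72, again without overlap. Ffar2, Cnr1 and Sucnr1, receptors for short-chain fatty acids, endocannabinoids and succinate, fell by 1.73, 1.55 and 1.38, from means of 2.76, 5.35 and 2.35 CPM. Ffar4, a receptor for long-chain fatty acids, was the member that rose (0.95), and cold replicate 5 stayed at 45.8 CPM, inside the RT range.

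Of 22 lipolysis genes 12 fell (54.5%) and 4 rose (18.2%). Lipe, the hormone-sensitive lipase, read 798, 841, 759, 748 and 832 CPM at RT and 353, 287, 251, 321 and 640.4 CPM in the cold. All cold libraries were below all RT libraries, with replicate 5 the highest of them (log2 change -1.103 ± 0.20, adjusted p = 0.000138). Pnpla2, which makes the first lipase of the pathway, fell by 0.29, and the droplet coat gene Plin3 by 1.09. Abhd5, the coactivator of that lipase, rose from 197 ± 20.99 CPM at RT to 311 ± 23.4 CPM in the cold (0.65). Plin2, a droplet coat gene induced by fatty acids, rose by 0.93, although cold replicate 4, at 500.4 CPM, lay in the RT range. Plin5, a perilipin of oxidative tissues, changed by -0.30 (adjusted p = 0.0979). Its cold replicate 5 stood at 178 CPM and the other cold libraries at 101.63 CPM or less, and without that library it fell by 0.52 (adjusted p = 7.18e-06).

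Genes that bring fatty acids from the blood were divided, with 9 up (34.6%) and 9 down (34.6%) of 26. Lpl, which encodes the enzyme that splits circulating triglyceride, went from 6944 ± 1467 CPM at RT to 12545 ± 850.4 CPM in the cold, a change of 0.85 ± 0.10. Gpihbp1, which anchors that lipase in capillaries, read 48.5, 40.8, 48.7, 54.1 and 40.6 CPM at RT and 83.1, 83.01, 90.5, 73.997 and 73.5 CPM in the cold. It rose by 0.80 without overlap, and Angptl4, an inhibitor of the same lipase, fell by 0.95. The acyl-CoA synthetase gene Acsl1 rose by 0.44. The fatty acid transporter gene Slc27a1 fell from 131 ± 14.5 CPM at RT to 50.6 ± 6.83 CPM in the cold (log2 change -1.37 ± 0.09, adjusted p = 2.46e-10). Mfsd2a, a carrier of lysophospholipids and the gene of largest rise among those above 5 CPM with no overlap, rose by 5.56 ± 0.64. Mitochondrial fatty acid oxidation had 3 genes up (13.6%) and 8 down (36.4%) of 22, none of them past 0.57 in log2 size. Without RT replicate 1, 2 or 3 only 1 rose.

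Thioesterases, which split acyl-CoA, had 5 members up (38.5%) and 2 down (15.4%) of 13, and 8 up without cold replicate 4, without cold replicate 5 or without both intermediate libraries. Acot5 rose by 5.33 from 0.322 CPM, but its relatives in the same gene cluster are near-identical. Reads that map to several of them were left out as multimapped, so its level covers only the reads unique to it. Them4 rose by 0.97 and Acot1 fell by 1.04. Among 10 genes of ketone body metabolism 2 rose (20%) and 3 fell (30%). Aacs, which activates acetoacetate for lipid synthesis, read 97.97, 97.7, 103, 34.6 and 109 CPM at RT and 23.8, 21.3, 20.5, 28.2 and 28.5 CPM in the cold. It fell by 1.86, and RT replicate 4 was the lowest of its group. Bdh1, the ketone body dehydrogenase, rose by 4.16 from 0.2196 to 4.04 CPM, a low level. The monocarboxylate transporter gene Slc16a1 rose by 0.51.

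Fatty acid synthesis had 6 rises (25%) and 3 falls (12.5%) of 24, with 5 falls without both intermediate libraries. Srebf1, the regulator of lipid synthesis, read 127, 100.2, 106, 59.7 and 138 CPM at RT and 20.03, 15.001, 17.1, 23.8 and 35.8 CPM in the cold, log2 change -2.25 ± 0.29, adjusted p = 4.1e-06. Mlxipl, the glucose-sensing factor ChREBP, fell by 1.09, and Mid1ip1, a partner of acetyl-CoA carboxylase, by 1.03. Elovl3, the elongase typical of brown fat, read 50.7, 85.2, 39.01, 70.6 and 163 CPM at RT and 358, 344, 238, 341 and 314 CPM in the cold. It rose by 1.96, and RT replicate 5 was the highest of its group. Elovl4, which makes very long chains, rose by 2.48 from 1.997 ± 0.707 CPM at RT to 11.2 ± 4.604 CPM in the cold. Fasn, the fatty acid synthase, did not pass the test (-0.14, adjusted p = 0.789).

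Triglyceride assembly had 8 members up (38.1%) and 3 down (14.3%) of 21, and the 2 enzymes of its last step changed in opposite directions. Dgat1 went from 183 ± 14.6 CPM at RT to 416 ± 49.003 CPM in the cold, a change of 1.18. Dgat2 read 1646, 1610.5, 1411, 1009.8 and 1282 CPM at RT and 579.5, 566, 503, 753 and 638 CPM in the cold, a change of -1.195. Neither gene had overlapping groups. Gk, the kinase that lets the cell reuse glycerol, read 621, 635, 427, 764 and 892 CPM at RT and 1539, 1604, 1600.2, 1678 and 1695 CPM in the cold, and rose by 1.28 ± 0.16. The acyltransferase genes Gpam and Gpat4 rose by 0.75 and 0.55. Of 27 cholesterol genes 6 rose (22.2%) and 12 fell (44.4%). Sqle, which makes squalene epoxide, read 6.27, 10.5, 8.74, 7.56 and 14.6 CPM at RT and 17.1, 15.9, 16.99, 23.6 and 17.8 CPM in the cold. It rose by 0.94, while the last enzyme of the pathway, Dhcr7, fell by 1.17, and the exporter gene Abca1 by 0.77.

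Genes of glucose transport and glycolysis rose in 16 of 30 cases (53.3%) and fell in 8 (26.7%), with a median of 0.311. Slc2a1, the basal glucose transporter, read 5.64, 6.26, 6.08, 5.73 and 5.99 CPM at RT and 14.6, 15.8, 16.1, 11.8 and 11.1 CPM in the cold, log2 change 1.22 ± 0.11, adjusted p = 6.43e-09. The phosphofructokinase gene Pfkp went from 102 ± 33.9 CPM at RT to 280.2 ± 49.7 CPM in the cold, a change of 1.46, and the hexokinase gene Hk2 from 223 ± 23.4 CPM at RT to 471 ± 21.3 CPM in the cold, a change of 1.08. Neither overlapped. Slc2a4, the insulin-responsive glucose transporter, did not pass the test (0.22, adjusted p = 0.219). Trarg1, which regulates the trafficking of that transporter, read 187, 186, 221, 127 and 238 CPM at RT and 24.2, 22.1, 23.5, 19.6 and 42.1 CPM in the cold, log2 change -2.86 ± 0.25, adjusted p = 2.91e-08. Pfkfb1 fell by 1.24 and Slc2a12 by 0.88. Of 14 genes of pyruvate entry 5 rose (35.7%) and 1 fell (7.14%, and 2 genes without both intermediate libraries): the phosphatase gene Pdp2, which activates pyruvate dehydrogenase, rose by 0.96, and the kinase gene Pdk2, which inactivates it, fell by 0.73. Glycogen genes fell in 11 of 25 cases (44%) and rose in 2 (8%). Ppp1r3d, a targeting subunit of the glycogen phosphatase, read 36.2, 36.04, 36.98, 26.7 and 44.3 CPM at RT and 11.04, 7.13, 9.6998, 12.9 and 24.04 CPM in the cold, a change of -1.48, and Epm2a, the glycogen phosphatase laforin, fell by 1.39. The list also holds muscle genes: after adding the mean of the muscle markers to the fit, its counts were 1 up and 7 down.

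Insulin signalling had 12 members up (46.2%) and 8 down (30.8%) of 26. Irs2, an adaptor of the insulin receptor, read 40.1, 28.4, 56.1, 44.7 and 61.04 CPM at RT and 248, 327, 373, 298 and 149 CPM in the cold. The groups did not overlap, and cold replicate 5 was the lowest of the cold libraries (log2 change 2.599 ± 0.29, adjusted p = 6.8e-07). Irs3, an adaptor of rodent adipocytes, moved the other way, from 24.2 ± 5.36 CPM at RT to 4.203 ± 2.35 CPM in the cold (-2.52). Foxo1, a transcription factor that insulin shuts out of the nucleus, rose by 1.12. Akt2, the main Akt kinase of fat, fell by 0.90 and the phosphoinositide kinase subunit Pik3r2 by 1.16. Growth hormone and STAT5 genes fell in 7 of 14 cases (50%) and rose in 1 (7.14%). Stat5a, which carries growth hormone signals to the nucleus, read 54.04, 47.8, 51.7, 41.1 and 60.8 CPM at RT and 8.19, 5.27, 7.08, 13.2 and 20.9 CPM in the cold, log2 change -2.23 ± 0.27, adjusted p = 1.72e-06. Igfals fell by 2.55, the kinase gene Tyk2 by 1.06 and the growth hormone receptor gene Ghr by 0.38.

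Amino acid transporters changed in both directions, with 9 up (40.9%) and 6 down (27.3%) of 22. Slc7a6 read 63.5, 55.99, 66.4, 60.5 and 56.3 CPM at RT and 185, 226, 266, 231 and 173 CPM in the cold, log2 change 1.84 ± 0.13, adjusted p = 7.23e-10. Slc7a1, which carries cationic amino acids, rose by 1.75, and Slc3a2, the partner that brings several such transporters to the membrane, by 1.69. Slc38a2, a transporter of small neutral amino acids, rose by 1.09. Slc1a5, the glutamine carrier, read 293, 325, 269, 179.6 and 285 CPM at RT and 78.9, 76.5, 58.2, 71.2 and 149.7 CPM in the cold. It fell by 1.64, with cold replicate 5 the highest of the cold libraries and RT replicate 4 the lowest of the RT libraries. Breakdown of branched-chain amino acids had 2 rises (10.5%) and 7 falls (36.8%) of 19. Ppm1k, the phosphatase that activates the branched-chain dehydrogenase, fell from 66.2 ± 13.9 CPM at RT to 21.3 ± 5.62 CPM in the cold (-1.63). NAD metabolism fell in 13 of 19 genes (68.4%, against 30.2% of all genes), with a median of -0.345. Nmrk1, Naprt and Nmnat3, which feed NAD synthesis, fell by 0.96, 0.91 and 0.89, and Nampt by 0.38. Nnmt, which removes nicotinamide by methylation, was the member that rose (2 rose without any 1 of RT replicates 3, 4 and 5 and cold replicates 4 and 5, or without both intermediate libraries), from 51.5 ± 21.9 CPM at RT to 158 ± 59.05 CPM in the cold (1.61).

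**Figure D3:**
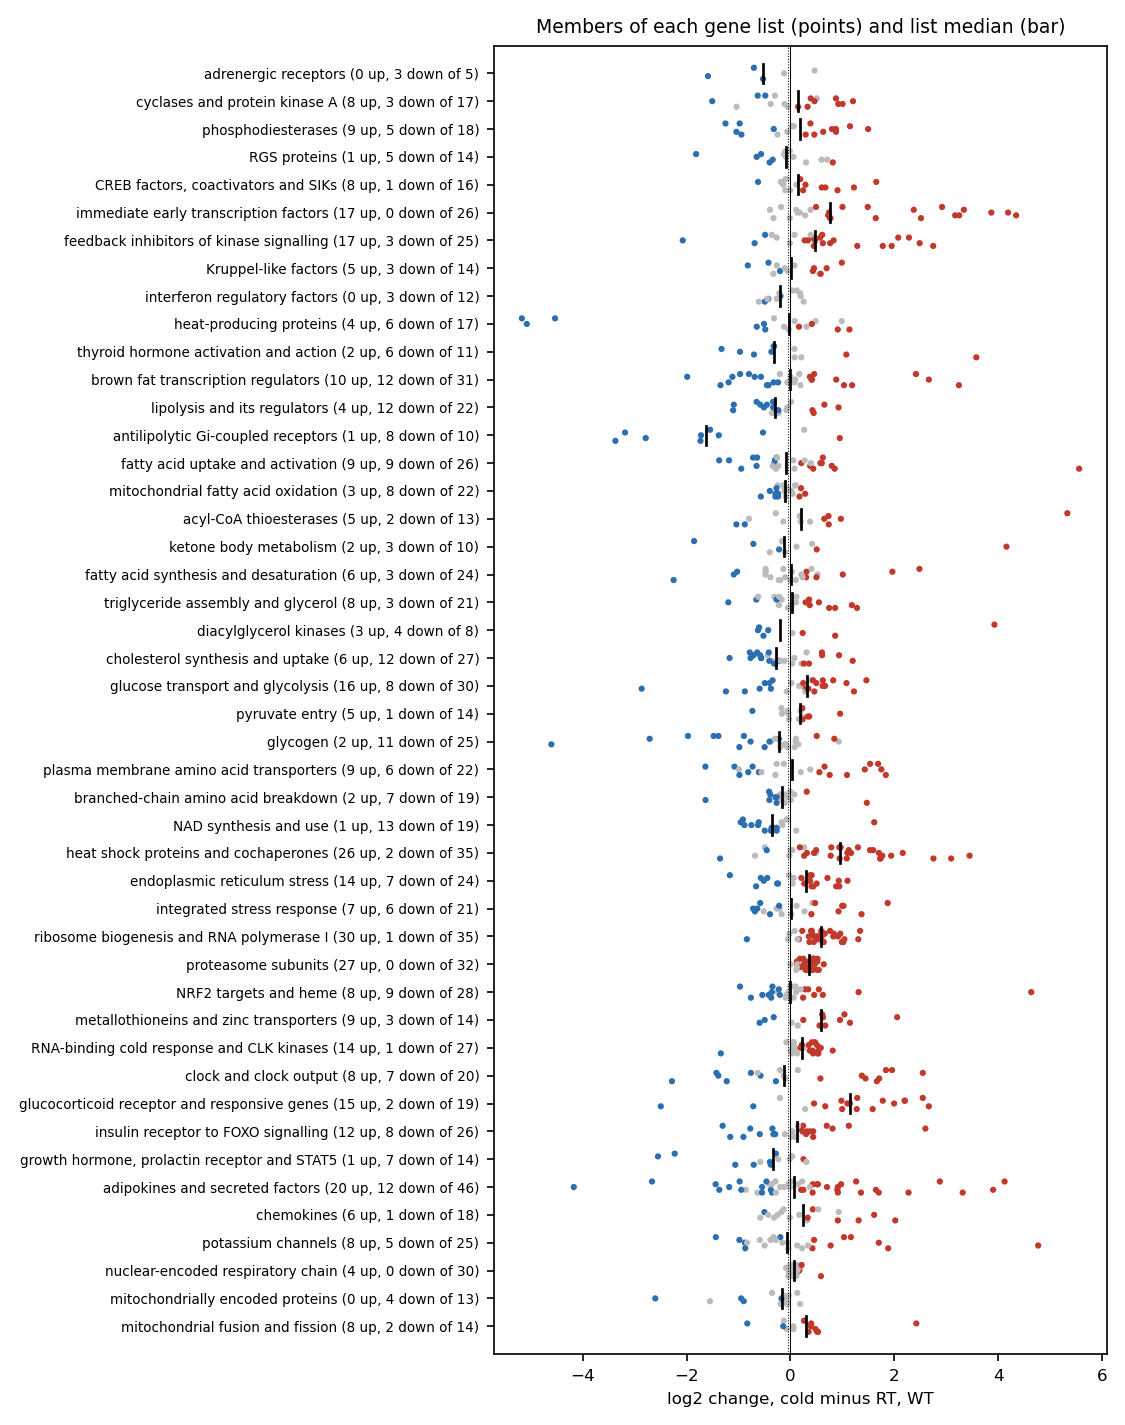
Log2 change of each tested member (points; red rose, blue fell, grey not called) of 46 gene lists, with the list median as a bar and the median of all genes as a dotted line. The antilipolytic receptors have the lowest median (-1.634). The list of glucocorticoid receptor and responsive genes and the heat shock list have the highest (1.147 and 0.947).

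Among genes of heat production, Ucp1 rose by 0.91 ± 0.12, Dio2, which makes active thyroid hormone inside the cell, by 3.58, and the coactivator gene Ppargc1a by 3.24. Both thyroid hormone receptor genes fell: Thra read 82.7, 84.4, 96.3, 70.9 and 79.4 CPM at RT and 56.8, 50.2, 52.03, 51.7 and 43.7 CPM in the cold (-0.70), and Thrb changed by -0.97. Atp2a2, the calcium pump used in calcium cycling, read 429, 423, 349, 474 and 413 CPM at RT and 877, 1050.1, 969, 934 and 763 CPM in the cold. It rose by 1.14 with no overlap. Of 17 heat-producing genes 4 rose (23.5%) and 6 fell (35.3%), with 2 rises without RT replicate 1 and 7 without both intermediate libraries, and 3 of the falls (Atp2a1, Ryr1 and Ckmt2) are genes of skeletal muscle. Nuclear-encoded subunits of the respiratory chain had 4 rises of 30 (13.3%) and no fall, and their median was 0.075. That count was 10 up and 0 down with relative log expression scaling, 12 up and 0 down with DESeq2 and 8 up and 0 down without both intermediate libraries, and it ran from 4 to 11 up when 1 library was left out. Cycs, which makes cytochrome c, was the member with the largest rise, from 498 ± 33.5 CPM at RT to 749 ± 48.6 CPM in the cold (0.59).

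Transcription regulators of brown fat had 10 rises (32.3%) and 12 falls (38.7%) of 31. Cebpa, a master factor of adipocytes, read 484, 491, 556, 579 and 518 CPM at RT and 112, 76.6, 92.7, 119.5 and 262 CPM in the cold, log2 change -1.99 ± 0.24, adjusted p = 1.34e-06. Cold replicate 5 was the highest cold library and still below every RT library. Esrrb, an estrogen-related receptor, rose by 2.42, from 1.32 ± 0.409 CPM at RT to 7.06 ± 2.87 CPM in the cold, whereas its relative Esrrg fell from 34.6 ± 10.6 CPM at RT to 13.6 ± 5.2998 CPM in the cold (-1.35). Zbtb16, a zinc finger factor induced by cold and glucocorticoids, read 7.13, 4.39, 22.02, 7.996 and 3.64 CPM at RT and 49.6, 76.3, 74.8, 29.7 and 53.6 CPM in the cold. Its change was 2.67, and without RT replicate 3, the highest RT library, it was 3.32. Zfp516, which binds with PRDM16, rose by 1.03. Ebf2 and Zfp423, regulators of the brown and white fate, fell by 1.12 and 1.19, and Ppara, a fatty acid sensor, by 0.69. Pparg, the central adipocyte receptor named in the series title, read 239.9, 236, 229, 181 and 211 CPM at RT and 202, 234, 214, 261 and 204 CPM in the cold. Its groups overlapped, and its change was 0.02 (adjusted p = 0.815).

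Heat shock proteins and cochaperones rose in 26 of 35 cases (74.3%) and fell in 2 (5.71%), with a median of 0.947. Hspa8, the constitutive chaperone of the cytosol, read 442, 310.3, 446, 557 and 545 CPM at RT and 1827, 1844, 1646, 2319 and 1190.4 CPM in the cold, log2 change 1.94 ± 0.17, adjusted p = 2.14e-08. Hsp90aa1, the inducible form of HSP90, went from 236 ± 81.4 CPM at RT to 804 ± 143 CPM in the cold, a change of 1.77. Hspb1, whose promoter is shown above, read 23.3, 27.7, 32.1, 40.2 and 36.3 CPM at RT and 74.9, 84.3, 72.2, 71.9 and 44.1 CPM in the cold. It rose by 1.12, with no overlap. Dnaja4, a cochaperone, rose by 2.16. Hspa1b rose by 3.45, and by 2.82 without cold replicate 1. It is near-identical to Hspa1a, and reads that map to both were left out as multimapped, so its level covers only the reads unique to it. Of the members above 5 CPM, the small heat shock protein gene Hspb6 fell most, by 1.35, and by 0.62 with the muscle marker term in the fit.

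Ribosome biogenesis and RNA polymerase I had 30 of 35 members up (85.7%) and 1 down, with a median of 0.594. Nop2, which modifies ribosomal RNA, read 26.5, 23.2, 23.8, 30.8 and 25.6 CPM at RT and 58.7, 76.6, 72.9, 74.7 and 46.8 CPM in the cold, a change of 1.34, and Rrp12 rose by 1.31. Dkc1, which guides pseudouridine into ribosomal RNA, was the member that fell (-0.84). Proteasome subunits had 27 of 32 members up (84.4%) and none down, with a median of 0.358 and a largest change of 0.64. Of 24 genes of endoplasmic reticulum stress 14 rose (58.3%) and 7 fell (29.2%). Manf, a secreted chaperone of that compartment, rose from 21.1 ± 2.94 CPM at RT to 45.2 ± 7.19 CPM in the cold (1.099), and Xbp1, a transcription factor of the same response, changed by -1.17. Among 21 genes of the integrated stress response 7 rose (33.3%) and 6 fell (28.6%), shares near those of all genes. Its factor Atf4 read 72.5, 88.5, 77.8, 96.6 and 77.6 CPM at RT and 203, 268, 238, 189.7 and 168 CPM in the cold (log2 change 1.37 ± 0.11, adjusted p = 2.26e-09). Its relative Atf5 rose by 0.93.

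The list of NRF2 targets and heme genes had 8 rises (28.6%) and 9 falls (32.1%) of 28. Hmox1, which breaks down heme, rose by 4.64 ± 0.32. Srxn1, a repair enzyme of peroxiredoxins, read 51.7, 44.5, 42.7, 37.5 and 60.4 CPM at RT and 111, 135, 121, 132 and 89.4 CPM in the cold, a change of 1.31. The heme synthesis genes Cpox and Alad fell by 0.97 and 0.76. Zinc handling had 9 rises (64.3%) and 3 falls (21.4%) of 14. Slc39a14, a zinc and iron importer, read 34.4, 39.7, 31.5, 35.4 and 36.2 CPM at RT and 154, 169, 145, 174 and 93.7 CPM in the cold, log2 change 2.05 ± 0.15, adjusted p = 1.41e-09, and the metallothionein gene Mt2 went from 36.5 ± 3.7001 CPM at RT to 80.7 ± 28.7 CPM in the cold (1.15), with cold replicate 5 the highest library.

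Genes known to respond to body temperature or to hormones of stress changed as well. Cirbp and Rbm3 encode RNA-binding proteins that mild hypothermia induces in cultured cells. Cirbp read 11.2, 12.8, 10.1, 8.64 and 12.1 CPM at RT and 4.204, 3.34, 4.67, 3.58 and 5.89 CPM in the cold. It fell by 1.34, while Rbm3 rose from 30.3 ± 2.58 CPM at RT to 40.7 ± 4.58 CPM in the cold (0.43). Neither had overlapping groups. In the clock list 8 of 20 rose (40%) and 7 fell (35%, and 4 genes without cold replicate 3, and 4 with the muscle marker term). Per1, an early clock gene that CREB and glucocorticoids both induce, read 16.01, 8.57, 11.7, 10.4 and 7.299 CPM at RT and 52.2, 64.5, 75.2, 59.7 and 63.9 CPM in the cold, log2 change 2.55 ± 0.29, adjusted p = 7.99e-07. Its relative Per3 read 24.9, 15.2, 16.8, 17.2 and 14.6 CPM at RT and 3.09, 3.89, 2.73, 5.17 and 3.41 CPM in the cold, a change of -2.28. Per2 and Arntl rose by 1.96 and 1.66, and the output factors Dbp and Hlf fell by 1.42 and 1.23. The labels give no hour of collection. In the list of glucocorticoid receptor and responsive genes 15 of 19 rose (78.9%) and 2 fell (10.5%), with a median of 1.147. Fkbp5, a feedback chaperone of the glucocorticoid receptor, read 6.57, 8.81, 6.51, 6.604 and 13.4 CPM at RT and 27.1, 34.6, 46.2, 22.7 and 36.7 CPM in the cold, a change of 1.997. The cell cycle inhibitor gene Cdkn1a went from 90.5 ± 16.5 CPM at RT to 416 ± 89.9 CPM in the cold (2.202), and Sgk1 rose by 1.28. Nr3c2, the mineralocorticoid receptor, read 10.03, 13.3, 12.3, 8.87 and 11.7 CPM at RT and 2.65, 1.93, 1.73, 1.4995 and 2.07 CPM in the cold. It fell by 2.496, and Nr3c1, the glucocorticoid receptor, changed by 0.28 (adjusted p = 0.0557). Nr3c1 passed without RT replicate 4 and without cold replicate 1, 4 or 5 (adjusted p = 0.0251, 0.0412, 0.0274 and 0.00785). It also passed with relative log expression scaling (adjusted p = 0.0381), with DESeq2 (0.0271) and with both-strand counts (0.038). Without both intermediate libraries its adjusted p was 0.0046.

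Secreted factors had 20 members up (43.5%) and 12 down (26.1%) of 46. Fgf9, a growth factor, read 1.83, 1.68, 1.48, 1.99 and 1.79 CPM at RT and 24.04, 18.1, 20.8, 19.6 and 5.34 CPM in the cold, log2 change 3.32 ± 0.33, adjusted p = 1.37e-07, with cold replicate 5 far below the other cold libraries. The angiopoietins, ligands of the endothelial receptor TIE2, moved apart. Angpt1, the agonist, read 26.97, 21.1, 30.8, 30.2 and 16.5 CPM at RT and 3.88, 5.03, 3.35, 3.18 and 4.197 CPM in the cold, a change of -2.67, and Angpt2, the context-dependent antagonist, went from 1.86 ± 0.427 CPM at RT to 8.99 ± 4.15 CPM in the cold, a change of 2.27. Fst, which binds activins, rose by 1.701. Gdf5, a ligand of the BMP family, went from 5.73 ± 2.12 CPM at RT to 0.316 ± 0.153 CPM in the cold, a change of -4.17. The cytokine-like genes Fgf21 and Bmp8b rose at low levels, from 0.162 and 0.0671 to 1.19 and 1.03 CPM. The adipokine gene Adipoq fell by 0.35. Of 18 chemokines 6 rose (33.3%) and 1 fell (5.56%, and 2 genes without RT replicate 5), with Ccl9 the largest rise among those above 5 CPM (5.94 ± 1.29 CPM at RT to 24.1 ± 9.51 CPM in the cold, a change of 2.02). Of 25 potassium channel genes 8 rose (32%) and 5 fell (20%, and 3 genes without cold replicate 1 or without cold replicate 4). Kcne4, an accessory subunit that inhibits voltage-gated channels, read 0.879, 0.818, 0.971, 1.14 and 0.859 CPM at RT and 12.1, 51.3, 47.2, 13.2 and 3.43 CPM in the cold, a change of 4.77. Its cold libraries were far apart, but all exceeded every RT library. Kcnk3, a background potassium channel of brown fat, rose from 488 ± 67.96 CPM at RT to 835 ± 75.03 CPM in the cold (0.77), and Kcna5 by 1.702.

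Several leading genes stood outside these lists. Cars2, a mitochondrial cysteinyl-tRNA synthetase that also makes persulfides, read 30.1, 35.4, 31.01, 50.8 and 66.7 CPM at RT and 373, 441, 466, 378 and 309 CPM in the cold, log2 change 3.200 ± 0.24, adjusted p = 4.92e-09. Npr3, the clearance receptor of natriuretic peptides, went from 86.3 ± 37.4 CPM at RT to 730.4 ± 379 CPM in the cold (3.08). Lrrc52, an auxiliary subunit of potassium channels, rose by 3.27 and the sialidase gene Neu3 by 2.95. Among falling genes, Kbtbd11, an adapter for protein degradation, read 48.2, 46.3, 52.3, 51.6 and 65.2 CPM at RT and 9.66, 5.22, 6.05, 7.56 and 16.6 CPM in the cold. It changed by -2.55. Frat1, which inhibits the kinase GSK3, fell from 6.95 ± 1.73 CPM at RT to 0.837 ± 0.3596 CPM in the cold (-3.05), and B3galt2, a galactosyltransferase, from 106 ± 31.6 CPM at RT to 17.8 ± 13.3 CPM in the cold (-2.58). Rnf182, a ubiquitin ligase, fell by 2.57, and Gprin3 by 2.45.

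**Figure D4:**
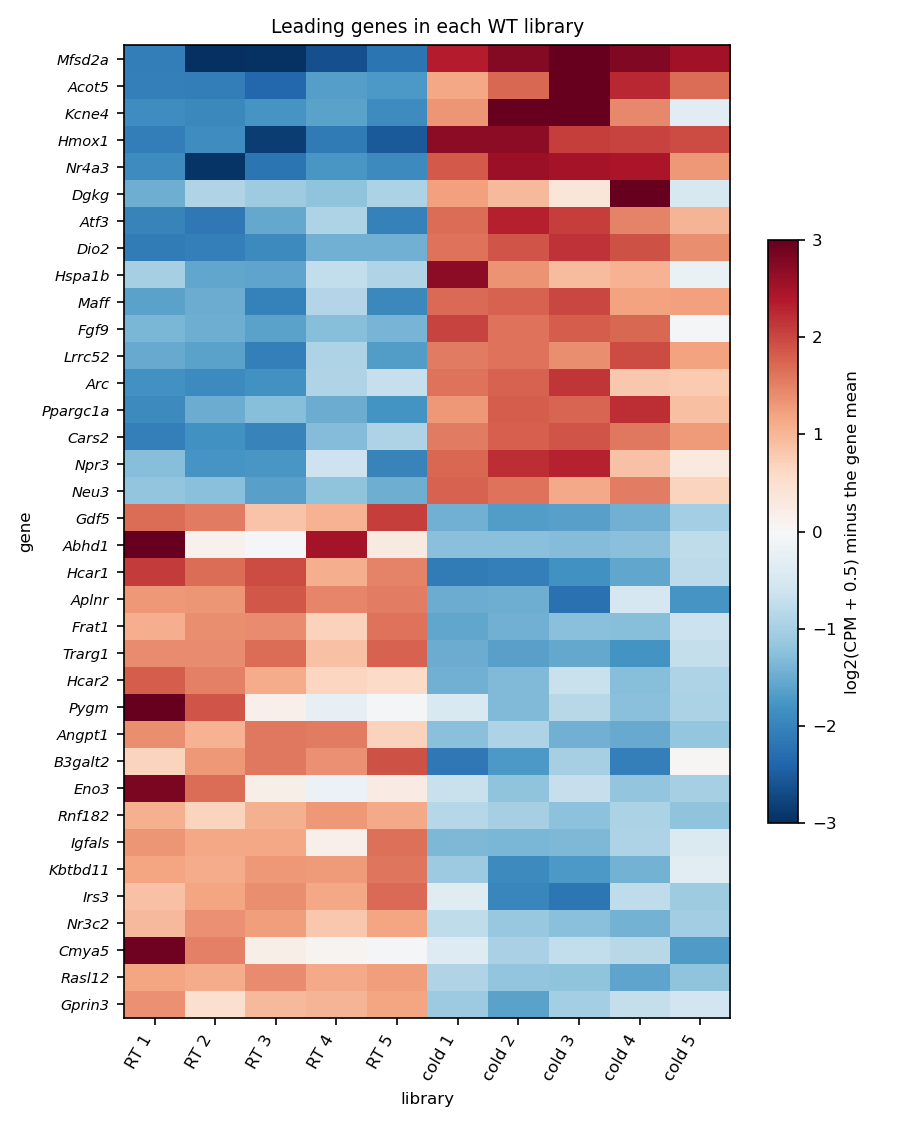
Of the 20 genes of largest rise and the 20 of largest fall among genes above 5 CPM with no overlap, the 17 and 19 that the text names (rows), in each wild-type library (columns). Color gives log2(CPM + 0.5) minus the gene's mean over the 10 libraries, from blue (lower) to red (higher). Pygm, Eno3 and Cmya5 are highest in RT replicate 1, the library with the most muscle marker RNA. Abhd1 is highest there too, at 18.9 CPM. Its next highest library is RT replicate 4 (13.4 CPM), which has the lowest muscle marker mean of the RT libraries.

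Measured per length of transcript, the largest gain was that of Ucp1, whose mean level rose from 3895 to 7329 CPM per kilobase of exon. Gmpr, which converts guanine nucleotides to inosine monophosphate, came next, with 186 and 943 CPM per kilobase. Its libraries read 375, 330.4, 259.8, 629 and 570.3 CPM at RT and 2331, 2344, 2431, 2315 and 1532 CPM in the cold, with no overlap. Dio2, Lpl, Cdo1, Hsp90ab1, Hspa8, Aldoa, Fabp3 and Cav1 followed, with gains from 579 down to 175 CPM per kilobase. Cdo1, which oxidizes cysteine, went from 779 to 1172 CPM per kilobase. The largest loss was that of Car3, a carbonic anhydrase abundant in fat, from 2019 to 1268 CPM per kilobase. Its libraries read 6507, 6100.1, 5707, 5429 and 5179 CPM at RT and 3643, 3265, 3291, 4161 and 3801 CPM in the cold. Cfd, Dgat2, Gpx3, Pck1, Cidea, Thrsp, Prkar2b, Cebpa and Adipoq followed, with losses of 281 down to 148 CPM per kilobase. Without RT replicate 5 the falls of Cfd, Gpx3 and Pck1 no longer passed the test (adjusted p = 0.0687, 0.0627 and 0.0573). Thrsp, a lipogenic gene that thyroid hormone induces, fell by 1.33 on the log2 scale. Mitochondrially encoded proteins were left out of this ranking. None of their 13 genes rose and 4 fell (30.8%, and 2 genes without RT replicate 4), and mitochondrial genes took 28.8% to 36.0% of gene reads over the 20 libraries.

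Markers of other cells differed between the groups. In bulk tissue, fewer cells of a type and less RNA per cell cannot be told apart. Of 18 skeletal muscle markers 17 fell (94.4%, and 11 genes with only the 10 wild-type libraries in the fit) and none rose. Their summed level ran from 8.62 to 1487 CPM at RT and from 3.96 to 41.01 CPM in the cold, so the groups overlapped, and no marker was at 0 in all libraries of a group. RT replicates 1 and 2 were the highest. They also lay farthest out on the RT side of the first principal component, at -56.54 and -52.33. RT replicate 4, nearest its middle at -25.51, had the lowest marker mean of the RT libraries. Cold replicates 2, 4 and 5 had similar marker means (log2 CPM -2.612, -2.638 and -2.554) but lay at 53.14, 47.49 and 30.04. The part of muscle RNA in this component was not tested. The part of muscle RNA in the falls of Pygm, Eno3, Cmya5, Phkg1, Ppp1r3a, Atp2a1, Ryr1 and Ckmt2 was not tested apart from the fit with the marker mean as a term. The muscle list had no call there, but the term is made from these same markers, Atp2a1 among them, so that loss was built in. Under the term Eno3 kept its call (log2 change -0.83, adjusted p = 0.00809), and Pygm, Cmya5, Ppp1r3a, Atp2a1, Ryr1 and Ckmt2 lost theirs. Of 11 tested lymphocyte markers 6 fell (54.5%) and none rose, with the B cell gene Ms4a1 at means of 0.5403 CPM at RT and 0.107 CPM in the cold. Of 14 endothelial markers 6 rose (42.9%) and 4 fell (28.6%), and their summed level ran from 1022 to 1309 CPM at RT and from 1191 to 1391 CPM in the cold. Cldn5, a tight junction gene of vessels, rose by 1.07. Among 12 smooth muscle and pericyte markers 1 rose (8.33%, and 2 genes without cold replicate 4 or without both intermediate libraries) and 4 fell (33.3%), and Cspg4, the pericyte proteoglycan NG2, read 50.2, 54.8, 50.1, 48.004 and 54.5 CPM at RT and 20.1, 15.1, 15.8, 15.5 and 22.9 CPM in the cold, a change of -1.53. Of 13 macrophage markers 2 rose (15.4%) and 1 fell (7.69%). Without RT replicate 5, cold replicate 2 or cold replicate 4 the rises were 5, 4 and 6, and without RT replicate 1, cold replicate 3, cold replicate 5 or both intermediate libraries only 1 rose. None fell without any 1 of RT replicates 1, 2 and 5 and cold replicates 1, 2 and 4. Of 14 fibroblast and progenitor markers 3 rose (21.4%) and none fell, with 5 rises without RT replicate 3 and 6 without cold replicate 1. None of 7 erythrocyte and 3 neutrophil markers was called by edgeR, and 1 and 0 had an unadjusted p under 0.05. DESeq2 called 1 erythrocyte marker and no neutrophil marker. Without cold replicate 5, and without both intermediate libraries, all 3 neutrophil markers fell, and without cold replicate 1, 2 or 4 the erythrocyte markers had 2, 3 and 2 rises.

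The cold response of the wild-type libraries was compared with that of the knockout libraries by the test of their difference, which called 113 genes (0.742% of 15233). In the knockout libraries alone cold changed 9019 genes (59.2%). Klhdc7a read 178, 146, 250.3, 224 and 211 CPM at RT and 65.8, 41.8, 51.6, 39.997 and 66.97 CPM in the cold in the wild type. It fell by 1.92 there and changed by 0.24 in the knockout, a difference of -2.16 (adjusted p = 0.000853). Tectb rose by 2.56 in the wild type and changed by 0.67 in the knockout (difference 1.89, adjusted p = 0.000722). Cd274, the immune checkpoint ligand PD-L1, fell by 0.89 in the wild type and by 3.11 in the knockout (difference 2.22, adjusted p = 0.00373). Prox2 fell by 1.55 in the wild type against -0.09 in the knockout (difference -1.46), and Rasl12 by 2.47 against -1.02 (difference -1.46). Adrb3 fell less in the wild type (-0.70) than in the knockout (-2.15), with a difference of 1.44 (adjusted p = 0.0261). That call was lost without RT replicate 3 (adjusted p = 0.0516) and without cold replicate 4 (adjusted p = 0.054). Cblb, Xdh, Cnn1 and Lifr made up the rest of the leading genes, with differences of 1.27, 1.27, -1.85 and -1.81. The call of Cblb was lost without RT replicate 1 or 5 (adjusted p = 0.0516 and 0.0521). Srxn1 (-1.13), described above, and Pde4a (-0.78), not described above, were also called. Pde4a, a cyclic AMP phosphodiesterase, fell by 0.94 in the wild type and changed by -0.16 in the knockout, and its call was lost without RT replicate 4 (adjusted p = 0.0503). Srxn1 rose by 2.44 in the knockout.

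**Figure D5:**
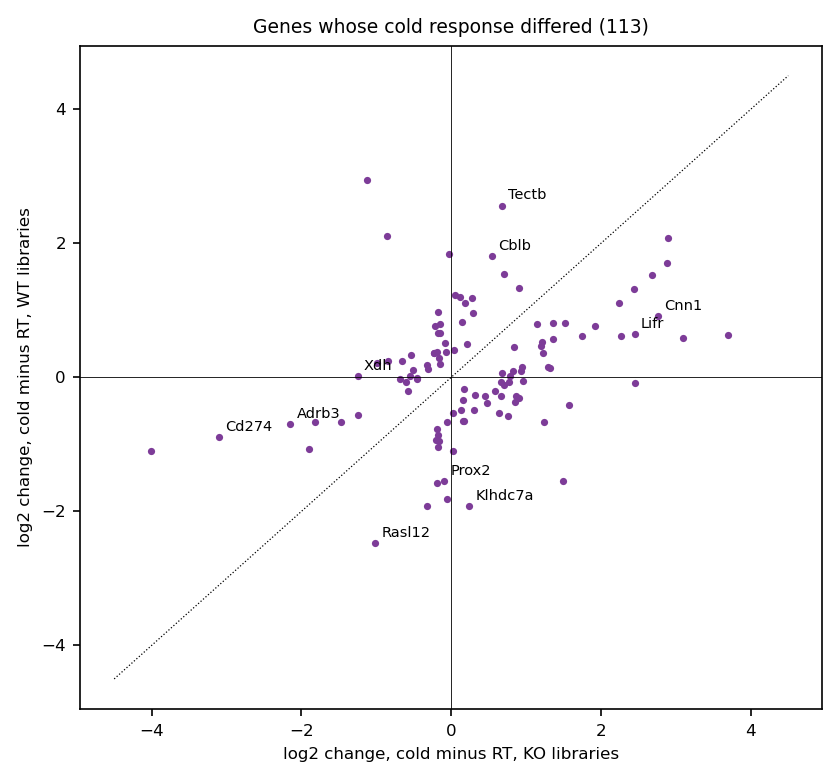
Log2 change in the cold in the wild-type libraries (vertical axis) against that in the knockout libraries (horizontal axis) for the 113 genes whose responses differed, with the 10 leading genes named. Points on the dotted line would have equal changes. Klhdc7a and Prox2 lie near 0 on the knockout axis, and Cd274 and Adrb3 lie farther below 0 there than on the wild-type axis.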

How the data were processed

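The series holds 20 messenger RNA libraries of brown fat, 5 in each of 4 groups (wild type or knockout, RT or cold). They were made with PureLink RNA isolation and the KAPA Stranded mRNA-Seq kit, per the labels' protocols. The deposited files hold raw read counts per gene, 1 table per library; per the submitters' processing notes, the tools were Trim Galore 0.6.0 and STAR 2.7.8a and the genome was GRCm38.p6 (mm10). The annotation release is not given in the sources used here. The reverse-strand counts were used, since 94.49% to 95.7% of strand-assigned gene reads lie there. The 4 entries that name no gene were left out: of all reads, unmapped reads made up 3.859% to 5.664%, multimapped reads 18.26% to 21.41%, reads on no gene 3.136% to 4.552% and ambiguous reads 1.019% to 1.162%. Gene counts ran from 27070755 to 55184989 per library.

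All 4 groups were fitted together with the robust quasi-likelihood test of edgeR 4.0.16 (limma 3.58.1, R 4.3.3) after TMM scaling and an expression filter (minimum count 10, minimum total 15), which left 15233 genes and 16 residual degrees of freedom. The log2 CPM behind the principal components, the muscle marker mean and the replicate correlations used a prior count of 2. Fitted log2 changes kept the default of edgeR. The Benjamini-Hochberg adjustment took in every tested gene (threshold 0.05). Variation between libraries, as a biological coefficient, was 15.3%. Symbols, lengths and biotypes came from GENCODE M21, which matched 55230 of 55471 gene IDs. Promoter sequences came from RefSeq. The scripts were tested on simulated data. DESeq2 1.42.0, other scalings and filters, a replicate block, both-strand counts, a muscle marker term and the omission of libraries were tried as alternatives.

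The comparison and the gene lists were chosen with earlier results of these data known. Named genes are the 20 of largest change in each direction among called genes with at least 5 CPM in a group and no overlap (predicted genes aside), mainly the 3 called members of largest change in each direction for each list, the 10 of largest gain and the 10 of largest loss per kilobase, the 5 of largest difference between the genotypes in each direction, and Cebpb. Other list members were named after their values were seen. Some genes that this rule selects are not reported here.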

Additional observations from a re-analysis of the deposited data

Results flagged for a closer look

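Of 456 groups of 5 wild-type libraries examined, 1 per named gene and temperature, 35 (7.68%) held a library far from the other 4 by Dixon's criterion, which about 1 group in 20 meets by chance. In 20 of them that library was WT_cold replicate 5, which lay nearer the middle of the first principal component than the other cold libraries. It was above the other cold libraries for Cebpa (262 CPM, others 76.6 to 119.5), Lipe (640.4 CPM, others 251 to 353), Prkar2b (1561 CPM, others 898 to 1014), Adora1 (46.7 CPM, others 22.2 to 28.9), Plin5 (178 CPM, others 82.99 to 102), Slc27a1 (62.5 CPM, others 45.4 to 49.7), Mlxipl (75.6 CPM, others 36.4 to 46.7) and Trarg1 (42.1 CPM, others 19.6 to 24.2). The same held for Ghr (334 CPM, others 199 to 233), Slc1a5 (149.7 CPM, others 58.2 to 78.9), Thrb (45.9 CPM, others 30.9 to 34.4), Xbp1 (47.6 CPM, others 26.3 to 32.1), Mt2 (131 CPM, others 61.5 to 73.6), Frat1 (1.45 CPM, others 0.547 to 0.794), Abhd1 (0.954 CPM, others 0.4997 to 0.531) and Thrsp (527 CPM, others 221 to 283). It was below them for Fosl2 (53.4 CPM, others 129 to 150.2), Hsp90aa1 (553 CPM, others 827 to 907), Kcna5 (14.8 CPM, others 17.6 to 18.4) and Gmpr (1532 CPM, others 2315 to 2431). All 4 genes for which it was low rose in the cold, and of the 16 for which it was high 14 fell, so in these genes the library lies on the RT side of its group. Of the others, Mt2 rose and Plin5 was not called.

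WT_RT replicate 4 stood apart from its group for Sik3 (59.5 CPM, others 44.9 to 49.04), Creb1 (40.1 CPM, others 34.2 to 35.4), Aacs (34.6 CPM, others 97.7 to 109), Slc7a1 (9.05 CPM, others 4.14 to 4.98) and Sgk1 (142 CPM, others 70.4 to 83.5). Other RT libraries did so for Pde5a (replicate 2, 8.97 CPM, others 7.94 to 8.23), Egr1 (replicate 2, 12.5 CPM, others 4.14 to 6.05), Zbtb16 (replicate 3, 22.02 CPM, others 3.64 to 7.996), Atf5 (replicate 5, 147 CPM, others 83.1 to 94.1), Per3 (replicate 1, 24.9 CPM, others 14.6 to 17.2) and Cmya5 (replicate 1, 49.9 CPM, others 5.96 to 18.4). Other cold libraries did so for Socs2 (replicate 3, 131 CPM, others 54.6 to 73.5), Sqle (replicate 4, 23.6 CPM, others 15.9 to 17.8), Slc2a4 (replicate 4, 409.7 CPM, others 265 to 304) and Dgkg (replicate 4, 22.4 CPM, others 0.9301 to 4.18).

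The cold response differed between wild-type and knockout libraries by the test of the difference for 12 of the named genes, given as the log2 response of the wild type minus that of the knockout. It was higher in the wild type for Adrb3 (1.44), Tectb (1.89), Cd274 (2.22), Xdh (1.27) and Cblb (1.27), and lower for Srxn1 (-1.13), Klhdc7a (-2.16), Prox2 (-1.46), Rasl12 (-1.46), Pde4a (-0.78), Cnn1 (-1.85) and Lifr (-1.81).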

How the results depend on the processing

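Counts of changed genes stayed within 1.5 times of those reported under every alternative run. With 1 wild-type library left out at a time, 3813 to 4248 genes rose and 4014 to 4462 fell, with 633 to 749 and 1197 to 1443 past 2-fold. Relative log expression scaling moved the median change by 0.029, and 46.3% to 50.1% of calls were rises across alternatives (46.5% as reported). The 113 genes whose response differed between the genotypes became 269 with DESeq2 and 74 without both intermediate libraries, and 82 to 125 with 1 library left out; the cause was not tested.

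Of 217 called genes named in the text, 202 kept direction and call in every alternative run, and 15 lost the call in at least 1. The skeletal muscle marker term ended 12 of these calls, among them Cebpb (adjusted p = 0.13), Pygm (0.0636), Cmya5 (0.0518), Fabp3 (0.0615), Hnrnpa1 (0.0506) and Mbp (0.0655). Under it Ckmt2 (log2 change 1.21) and Ppp1r3a (0.32) changed sign, as did Fasn (0.21), which was not called in either fit. Without RT replicate 1 the falls were 1.80 (Eno3), 1.83 (Pygm), 1.59 (Cmya5), 3.02 (Abhd1), 3.81 (Atp2a1) and 3.60 (Ryr1) on the log2 scale, and Ppp1r3a (adjusted p = 0.067) and Ckmt2 (0.105) were not called. Ckmt2 also lost its call without cold replicate 1, 2, 4 or 5 (adjusted p = 0.0526 to 0.0666). Without cold replicate 1, the log2 changes of Atp2a1, Ryr1 and Ppp1r3a were -6.24, -5.79 and -5.67. Cfd was not called without cold replicate 1 (0.0562), Gpx3 without RT replicate 4 (0.0768) or cold replicate 2 (0.0608), and Pck1 without cold replicate 3 (0.0622) or 5 (0.0512). Gdf5 changed by -5.21 with both-strand counts. Among genes that were not called, log2 changes took either sign when 1 library was left out: -0.24 to 0.02 for Adrb1, -0.07 to 0.64 for Egr1, -0.10 to 0.40 for Irf4 (-0.06 without both intermediate libraries), -0.37 to 0.13 for Fasn and -0.01 to 0.09 for Pparg. The difference between genotypes was not called without both intermediate libraries for Adrb3, Xdh, Lifr and Pde4a (adjusted p = 0.0754, 0.0633, 0.0648 and 0.0829), nor without the expression filter for Adrb3, Cblb, Cnn1 and Pde4a (0.0643, 0.0643, 0.0632 and 0.0533).

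Groups share replicate numbers. Deviations of RT and cold libraries of the same number had correlations of 0.215, -0.184, 0.0258, -0.00684 and 0.12, with 2 of 5 best with their own number. The main fit took no pairing from the numbers, and correlations of this size cannot exclude one. With the replicate block 3935 genes rose and 4556 fell, 631 and 1344 past 2-fold, and 94 responses differed between the genotypes. Plin5 (-0.33, adjusted p = 0.0259) gained a call and Ckmt2 (0.0669) lost one.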

Other observations

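Genes of splicing and RNA binding rose in 14 of 27 cases (51.9%) and fell in 1 (3.7%). Tra2a, a splicing regulator, went from 35.7 ± 7.09 CPM at RT to 62.8 ± 8.05 CPM in the cold, a log2 fold change of 0.81 (changes below are log2), and the ribonucleoprotein genes Hnrnph1, Hnrnpc and Hnrnpa1 rose by 0.58, 0.52 and 0.51. Genes that shape mitochondria had 8 rises (57.1%) and 2 falls (14.3%) of 14, and 1 fall when any 1 library other than RT replicate 4 was left out. Mfn1, which fuses outer membranes, read 91.7, 88.9, 95.01, 93.2 and 102 CPM at RT and 136, 157, 143, 140.4 and 104 CPM in the cold, a change of 0.53. Oma1, a protease that cleaves the fusion protein OPA1, fell from 7.46 ± 0.663 CPM at RT to 4.19 ± 0.582 CPM in the cold (-0.83), and the genes of OPA1 itself and of mitofusin 2 did not pass the test (Opa1 0.06 and Mfn2 0.06). Diacylglycerol kinases, which remove the lipid messenger diacylglycerol, had 3 rises (37.5%) and 4 falls (50%) of 8. Dgkg read 0.2197, 0.561, 0.457, 0.361 and 0.5303 CPM at RT and 4.18, 3.41, 2.09, 22.4 and 0.9301 CPM in the cold, a change of 3.93. Cold replicate 4 lay far above the other cold libraries, and without it the change was 2.67. Dgkz fell by 0.62 and Dgke by 0.60.

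The Schwann cell and nerve markers had 1 rise and 1 fall of 6. The member that rose, Pmp22, which encodes a myelin protein also made outside nerve, read 48.5, 44.4, 50.6, 34.3 and 35.7 CPM at RT and 113, 97.3, 115, 176 and 79.9 CPM in the cold, a change of 1.44, and the myelin gene Mbp fell by 0.40.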
